A study of Mus musculus with 20 samples.

Results

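Transcript levels of 40 mouse genes of sugar metabolism were compared across 4 groups of cultured kidney cells. The genes encode glucose and lactate transporters, the glycolytic enzymes and their isoforms, the bifunctional PFKFB enzymes, lactate dehydrogenase, the pyruvate dehydrogenase kinases, and enzymes of gluconeogenesis and glycogen turnover. They were chosen by name, with earlier results of these data known. Matched through their Ensembl identifiers, all 40 were found among the 39179 genes counted. Of the 40, 33 passed the filter on low counts and were among the 12671 genes tested.

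The libraries were made from total RNA of immortalised kidney epithelial cells of the mouse strain C57BL/6J, grown in serum-supplemented DMEM with uridine, 5 libraries in each of 4 groups. Fh1 encodes fumarate hydratase, which converts fumarate to malate in the tricarboxylic acid cycle. The groups were Rec, labelled as Fh1 wild type put back by re-expression, clone1 and clone19, both labelled Fh1 deletion, and Fh1_fl_fl, labelled Fh1 wild type. The fl_fl in the last name stands for floxed Fh1 alleles. All 4 groups shared the cell type, strain and medium. The labels do not say which clone gave rise to Rec, which stretch of Fh1 was removed, or whether the 5 libraries of a group were grown as separate cultures. The p-values therefore cover no more than the variation among these libraries, and part or all of it may be technical. Each deletion group is 1 clone, so the Fh1 label and the history of that clone cannot be told apart. Rec is the only group labelled as re-expressing Fh1, and Fh1_fl_fl the only other group labelled wild type. Their labels cannot be told apart from the history of their cells either.

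Gene totals ran from 5988447 to 18972176 counts per library, with a median of 10485784. Fh1 itself was counted at 71.3 ± 7.08 CPM in Rec, 113 ± 5.94 in clone1, 84.8 ± 7.32 in clone19 and 92.4 ± 6.16 in Fh1_fl_fl (SD, n = 5 each), where CPM scales the counts to a common library size by the TMM method. It was not called lower in either clone than in Fh1_fl_fl by edgeR's test (log2 fold change 0.29 ± 0.07 in clone1 and -0.12 ± 0.07 in clone19, adjusted p = 0.000598 and 0.124). In Rec, the group labelled as re-expressing Fh1, it was called lower than in every other group, with log2 fold changes of -0.37 ± 0.07 over Fh1_fl_fl, -0.66 ± 0.07 over clone1 and -0.25 ± 0.07 over clone19 (adjusted p = 4.29e-05, 3.49e-09 and 0.0032). The gene-level count thus does not order the groups as the deletion and re-expression labels would, and since neither the deleted stretch nor the construct put back is given, it checks neither label. Groups are called by their labels throughout.

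All 10 epithelial markers, among them Epcam, Cdh1 and Krt8, were at 1 CPM or more in every group, with a summed level of 4544 to 4983 CPM in Rec, 2683 to 3328 in clone1, 2274 to 2585 in clone19 and 3725 to 4336 in Fh1_fl_fl. Not all of them followed that order, since Pax8 averaged 185 CPM in Rec, 371 in clone1, 233 in clone19 and 194 in Fh1_fl_fl. Krt19, also higher in both clones than in Fh1_fl_fl, averaged 682 CPM in Rec, 639 in clone1, 458 in clone19 and 348 in Fh1_fl_fl. Krt18, higher in clone1 but lower in clone19 than in Fh1_fl_fl, averaged 1159 CPM in Rec, 802 in clone1, 386 in clone19 and 684 in Fh1_fl_fl. Of 10 proximal tubule markers, 3 to 4 reached 1 CPM and Slc34a1, Slc22a6 and Slc13a3 were at 0. Of those detected, Lrp2 averaged 12.6 CPM in Rec, 81.8 in clone1, 80.2 in clone19 and 35.3 in Fh1_fl_fl. Aqp1 averaged 3.79 CPM in Rec, 81.6 in clone1, 18.8 in clone19 and 15.0 in Fh1_fl_fl. Cubn, highest in Rec, averaged 33.3 CPM in Rec, 18.3 in clone1, 19.5 in clone19 and 16.5 in Fh1_fl_fl. The proximal tubule list summed to 41.8 to 55.4 CPM in Rec, 157 to 234 in clone1, 94.2 to 153 in clone19 and 59.5 to 78.8 in Fh1_fl_fl. The endothelial list, the leukocyte list, the podocyte list, the list for collecting duct and distal tubule and the fibroblast list summed to between 0.143 and 21.7 CPM. Of these, the leukocyte list summed to 2.13 to 4.12 CPM in Rec, 8.5 to 10.96 in clone1, 18.2 to 21.7 in clone19 and 3.87 to 5.19 in Fh1_fl_fl. Most of it was Cd68, at 2.62 CPM in Rec, 7.61 in clone1, 18.1 in clone19 and 3.97 in Fh1_fl_fl. Ptprc of that list averaged 0.456 CPM in Rec, 0.692 in clone1, 0.599 in clone19 and 0.519 in Fh1_fl_fl. The endothelial list summed to 0.637 to 0.982 CPM in Rec, 1.22 to 2.81 in clone1, 7.14 to 9.8 in clone19 and 0.143 to 0.539 in Fh1_fl_fl. In clone19 most of it was Cdh5, at 7.92 CPM, while Pecam1 averaged 0.172, Kdr 0.035 and Tek 0. The fibroblast and muscle list summed to 1.18 to 1.67 CPM in Rec, 9.92 to 11.4 in clone1, 4.61 to 10.3 in clone19 and 1.07 to 1.56 in Fh1_fl_fl. In clone1 Des averaged 6.31 CPM and Col1a1 3.45, while Pdgfrb was at 0 and Col1a2 at 0.0194. In clone19 Pdgfra averaged 3.57 CPM, Des 2.22 and Col1a1 1.41. The list for collecting duct and distal tubule was highest in Fh1_fl_fl. It summed to 2.15 to 2.9 CPM in Rec, 1.53 to 3.41 in clone1, 2.53 to 4.98 in clone19 and 8.29 to 11.2 in Fh1_fl_fl. In Fh1_fl_fl Scnn1a averaged 5.12 CPM, Umod 3.16 and Aqp3 1.15, while Aqp2 was at 0.0242. The podocyte list, nearly all Synpo, summed to 0.983 to 2.06 CPM in Rec, 12.3 to 17.7 in clone1, 8.99 to 11.9 in clone19 and 13.5 to 21 in Fh1_fl_fl. In clone19 replicate 3 the locus Gm42418 held 8.20% of all counts.

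Glycolysis splits glucose into pyruvate in the cytosol. Glucose enters through transporters of the Slc2a family, is phosphorylated by hexokinase and then by phosphofructokinase, and is cleaved by aldolase. The lower steps, from glyceraldehyde phosphate dehydrogenase to pyruvate kinase, return ATP. Lactate dehydrogenase interconverts pyruvate and lactate, monocarboxylate transporters carry lactate across the membrane, and the pyruvate dehydrogenase kinases switch off the complex that would send pyruvate into the mitochondrial cycle. Many steps have several isoforms from separate genes, with different tissue patterns. The proximal tubule of the kidney is a site of gluconeogenesis, which runs the pathway backwards through fructose bisphosphatase, phosphoenolpyruvate carboxykinase and glucose 6-phosphatase.

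The genes as a set took a larger share of the libraries in both clones. They made up 0.880 to 0.943% of gene counts in Rec, 1.96 to 2.25% in clone1, 1.5 to 1.79% in clone19 and 0.967 to 1.03% in Fh1_fl_fl. With TMM scaling the sums were 9083 to 9795 CPM in Rec, 19858 to 23413 in clone1, 15897 to 17738 in clone19 and 9018 to 9602 in Fh1_fl_fl. Rec lay below Fh1_fl_fl as a share of counts but overlapped it with TMM scaling, and on both scales the 2 clones overlapped neither each other nor the other groups. Such levels are relative to the library, so fewer cells of a type and less RNA per cell cannot be told apart in bulk samples. The summed epithelial markers were lowest in the clones. The summed proximal tubule, leukocyte, endothelial and fibroblast markers were higher in the clones than in Rec and Fh1_fl_fl. In the clones, the leukocyte, endothelial and fibroblast sums came mostly from a few genes, such as Cd68, Cdh5 and Des. The summed markers of collecting duct and distal tubule were lower in Rec and in both clones than in Fh1_fl_fl. Single markers such as Pax8, Krt19, Cubn and, in clone1, Krt18 departed from their lists. The part of any of these markers in the results that follow was not tested.

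Each gene was tested with edgeR's quasi-likelihood test, adjusted by the Benjamini-Hochberg method over all 12671 genes, and called changed at an adjusted p under 0.05. A gene called over 2-fold passed a test that its change exceeds that bound. In clone1 over Fh1_fl_fl, 29 of the 33 genes rose, where 38% of all tested genes did, and 4 fell, where 40.5% of all did, so that 78.6% of all genes were called. All 20 genes called over 2-fold were higher, against 10.9% of all genes in each direction. The median log2 fold change was 1.29 for the 33 genes and -0.03 for all genes. In clone19 over Fh1_fl_fl, 29 rose, 1 fell and 3 were not called, against 36.8% higher and 36.1% lower among all genes, or 72.9% called. All 13 genes called over 2-fold were higher in clone19, against a background of 8.2% higher and 7.28% lower, and the median was 0.86 against 0.00. Both clones were compared with the same 5 Fh1_fl_fl libraries. Since most genes were called in each comparison, a call by itself says little, and the sizes below carry more. The genes were chosen with earlier results of these data known, so the shares and medians describe them and test nothing.

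In Rec over clone1, 3 of the 33 genes were higher and 28 lower, with 39.7% and 38.1% of all genes called in those directions (77.9% in all) and a median of -1.28. The count over 2-fold was 1 higher and 19 lower, against 9.12% and 12.9% of all genes. In Rec over clone19, 3 were higher and 27 lower, with 35.8% and 38% of all genes called (73.8% in all) and a median of -0.83. All 13 called over 2-fold were lower, against a background of 5.11% higher and 10.4% lower. In Rec over Fh1_fl_fl, 11 were higher, 13 lower and 9 not called, with 33.4% and 37.4% of all genes called (70.8% in all) and a median of -0.06. With library totals in place of TMM scaling that split was 6 higher and 17 lower. In clone1 over clone19, 19 were higher, 8 lower and 6 not called, with 31.6% and 33.5% of all genes called (65.1% in all), and the median was 0.39. The Rec comparisons use the same 5 Rec libraries and share the clone and Fh1_fl_fl libraries with the comparisons above.

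Many of these groups did not overlap at all in their libraries. In clone1 over Fh1_fl_fl, 28 of the 33 genes were higher and 3 lower in all 5 clone1 libraries than in any Fh1_fl_fl library, where 31.3% and 34.3% of all genes were so separated (65.5% in all). In clone19 over Fh1_fl_fl, 26 were higher and 1 lower without overlap, against 29.3% and 29.7% of all genes (59% in all). In Rec over clone1, 2 were higher and 26 lower, against 31.9% and 31% (62.9% in all). In Rec over clone19, 1 was higher and 26 lower, against 27.9% and 29.7% (57.5% in all). In Rec over Fh1_fl_fl, 10 were higher and 12 lower, against 27.4% and 30.8% (58.3% in all), and in clone1 over clone19, 18 were higher and 6 lower, against 22.4% and 23% (45.3% in all).

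**Figure D1:**
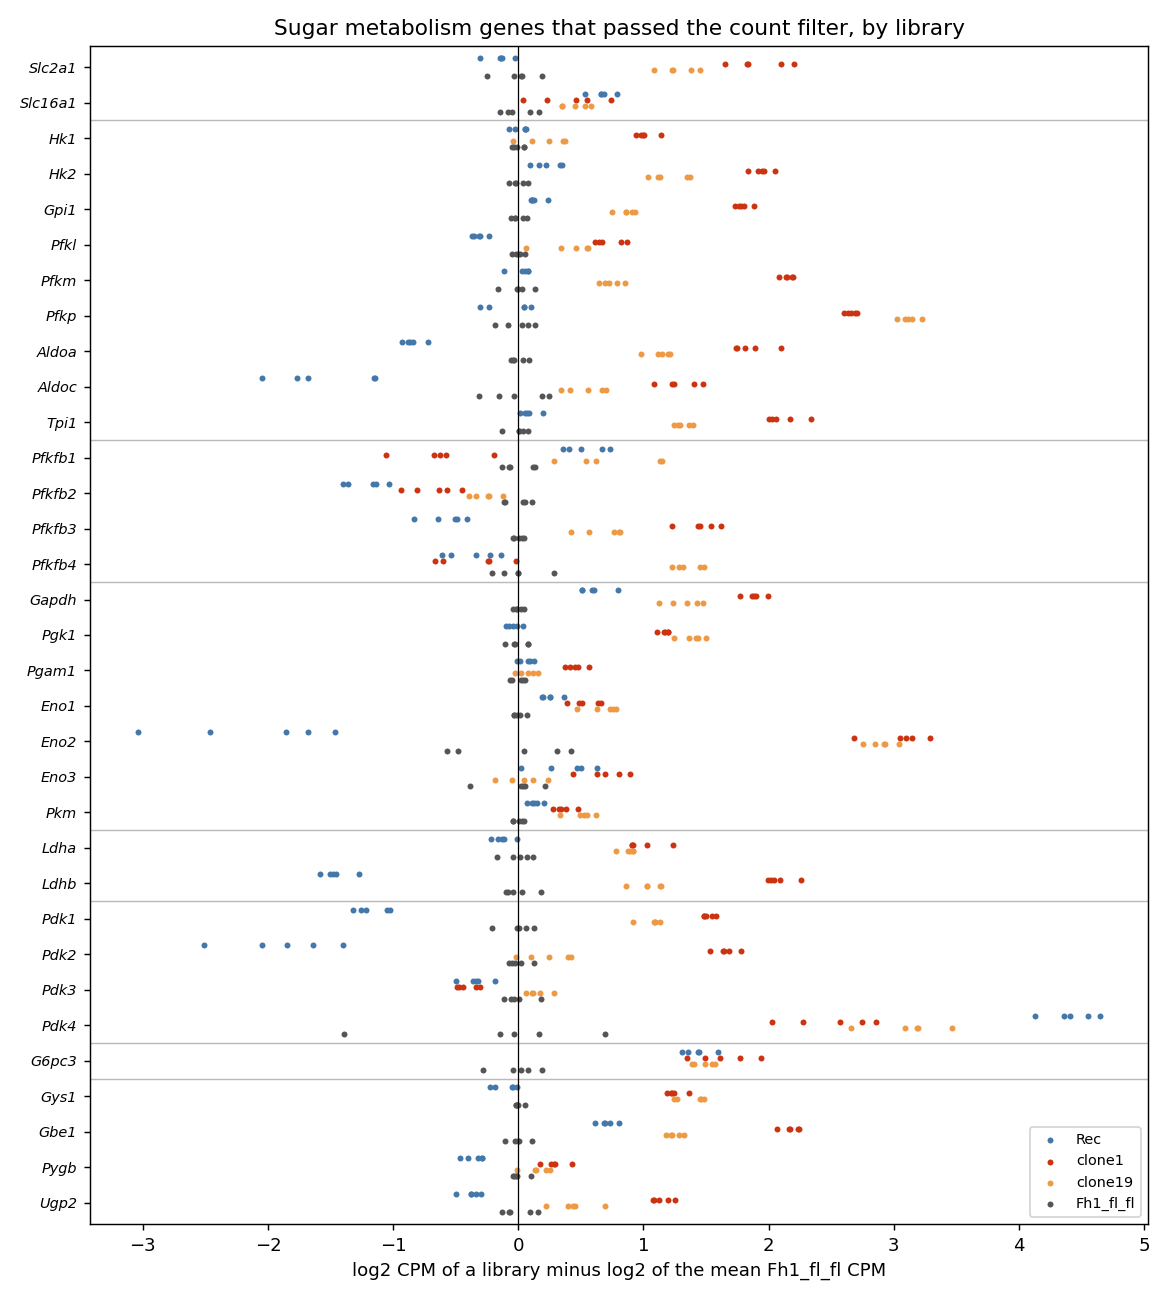
Level of each of the 33 tested genes in each library, as log2 CPM minus log2 of the mean Fh1_fl_fl CPM, with 1 point per library and the groups in 4 colours. Most clone1 and clone19 points lie right of 0, while many Rec points lie near 0 and others, such as those of Eno2, Ldhb, Pdk1, Pdk2 and Aldoc, lie left of it, and Pdk4 and G6pc3 are right of 0 in Rec and in both clones.

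Among the transporters, the glucose transporter gene Slc2a1 (ENSMUSG00000028645; GRCm38 chromosome 4, 119108711 to 119137983, plus strand) rose in both clones, and the lactate transporter gene Slc16a1 had its highest mean in Rec. Slc2a1, which encodes GLUT1, the widely expressed carrier, had 93.8, 87.2, 77.1, 86 and 86.8 CPM in Rec, 409, 339.9, 299, 339 and 439 in clone1, 260.3, 202, 225, 224 and 248 in clone19, and 109, 97.3, 93.3, 80.0 and 97 in Fh1_fl_fl libraries. Every clone1 library lay above every clone19 library, and both clones lay above Rec and Fh1_fl_fl, which overlapped. Slc2a1 rose by 1.94 ± 0.09 in clone1 and 1.28 ± 0.09 in clone19 over Fh1_fl_fl (log2 fold change ± SE, adjusted p = 1.84e-16 and 1.81e-12). In Rec it was 2.08 ± 0.09 below clone1 on the log2 scale, and its difference from Fh1_fl_fl, -0.15 ± 0.09, did not pass the test (adjusted p = 0.161).

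Slc16a1 (ENSMUSG00000032902; GRCm38 chromosome 3, 104638668 to 104658462, plus strand) encodes MCT1, which carries lactate and pyruvate, and had 238, 222, 199, 218 and 218 CPM in Rec, 202, 162, 142, 189.8 and 231 in clone1, 206, 199.7, 176, 176 and 189 in clone19, and 147, 154, 130.4, 124 and 133 in Fh1_fl_fl libraries. The Rec and clone ranges overlapped each other, and only the clone1 range reached into that of Fh1_fl_fl. Slc16a1 rose over Fh1_fl_fl by 0.67 ± 0.09 in Rec, 0.43 ± 0.09 in clone1 and 0.46 ± 0.09 in clone19 (adjusted p = 3.56e-07, 0.000151 and 8.46e-05). Its excess in Rec was 0.24 ± 0.09 over clone1 and 0.21 ± 0.09 over clone19, but the call over clone1 was lost when any of 3 libraries was left out (adjusted p from 0.0515 to 0.0844), and the call over clone19 when any of 5 was (0.0529 to 0.0942) or by DESeq2 (0.0515). The neuronal-type glucose transporter gene Slc2a3 was near the limit of detection, with 5 counts summed over the Rec libraries, 19 over clone1, 21 over clone19 and 7 over Fh1_fl_fl. Slc16a3, the MCT4 gene used by many lactate-exporting cells, had 1 count in clone19 and 0 elsewhere, where a count of 0 still allows up to 3 counts, or 0.158 to 0.501 CPM in a library, for counting error alone.

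All 9 genes of upper glycolysis, from hexokinase to triose phosphate isomerase, rose in both clones, 7 over 2-fold in clone1 and 4 in clone19. Of all tested genes, 38% were higher in clone1 and 36.8% in clone19, and 10.9% and 8.2% were over 2-fold higher. Hexokinase traps glucose in the cell as its phosphate. Hk2, the isoform usual in insulin-sensitive and growing cells, had 192 ± 14.2 CPM in Rec, 627 ± 34 in clone1, 375 ± 39.1 in clone19 and 163 ± 6.65 in Fh1_fl_fl (SD, n = 5 each). Hk1, the isoform found in most tissues, had 129 ± 5.31 CPM in Rec, 258 ± 13.8 in clone1, 149 ± 17.7 in clone19 and 128 ± 3.87 in Fh1_fl_fl. Hk2 rose by 1.95 ± 0.07 in clone1 and 1.21 ± 0.07 in clone19, and Hk1 by 1.01 ± 0.07 in clone1, with no overlap of libraries. The Hk1 libraries of clone19 overlapped those of Fh1_fl_fl, and its change of 0.22 ± 0.07 was not called with library totals (adjusted p = 0.256). Per kilobase of exon, Hk2 made up 67.9 ± 0.897% in Rec, 77.6 ± 0.365% in clone1, 78.3 ± 0.902% in clone19 and 64.5 ± 1.14% in Fh1_fl_fl of the hexokinase reads. The ratio of Hk2 to Hk1 rose by 0.93 in clone1 and 0.99 in clone19 over Fh1_fl_fl, and by 0.22 in Rec (log2, exact two-sided permutation test of 5 against 5 libraries, adjusted p = 0.0108 each). That is the smallest adjusted value in 84 ratio comparisons, for which the permutations allow a p of 0.00794 at the least. Between clone1 and clone19 the ratio differed by -0.06 (adjusted p = 0.174 by the same exact permutation test).

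Gpi1, glucose phosphate isomerase, had 393 ± 15.5 CPM in Rec, 1236 ± 50.3 in clone1, 649.5 ± 31.7 in clone19 and 357 ± 13.3 in Fh1_fl_fl. It rose by 1.79 ± 0.05 in clone1 and 0.86 ± 0.05 in clone19. Tpi1, which interconverts the triose phosphates, had 653 ± 32.9 CPM in Rec, 2689 ± 268 in clone1, 1532 ± 68.1 in clone19 and 615 ± 32.3 in Fh1_fl_fl. Its increase was 2.13 ± 0.07 in clone1 and 1.32 ± 0.06 in clone19. For both genes the 5 clone1 libraries lay above the 5 clone19 libraries, and these above all others. In Rec, Gpi1 was 0.14 ± 0.05 over Fh1_fl_fl, a call lost with library totals (adjusted p = 0.931), and Tpi1 was not called (0.08 ± 0.06, adjusted p = 0.235).

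Phosphofructokinase commits sugar phosphate to glycolysis, and its 3 isoform genes moved by different amounts in the 2 clones. Pfkp (ENSMUSG00000021196; GRCm38 chromosome 13, 6579768 to 6648777, minus strand), the platelet isoform, had 13.5, 14.2, 17.2, 17.2 and 17.8 CPM in Rec, 105, 101, 109, 104 and 107 in clone1, 156, 136, 142, 144 and 147 in clone19, and 17.6, 17, 14.7, 15.8 and 18.2 in Fh1_fl_fl libraries. It was higher in every clone19 library than in any clone1 library, and both were far above Rec and Fh1_fl_fl, which overlapped. Pfkp rose by 2.66 ± 0.07 in clone1 and 3.12 ± 0.07 in clone19, 6.3-fold and 8.67-fold (adjusted p = 1.34e-21 and 1.8e-22). Pfkm (ENSMUSG00000033065; GRCm38 chromosome 15, 98092589 to 98132451, plus strand), the muscle isoform, had 73.5, 74.7, 74.8, 65.4 and 72.4 CPM in Rec, 312, 323, 314, 324 and 299.9 in clone1, 122, 114, 111, 117 and 128 in clone19, and 70.3, 63.5, 72.1, 70.7 and 77.5 in Fh1_fl_fl libraries. Here the order of the clones was the other way, with every clone1 library above every clone19 library. Pfkm rose by 2.15 ± 0.06 in clone1 and 0.74 ± 0.06 in clone19, and the clones differed by 1.41 ± 0.06 (adjusted p = 2.07e-17). Pfkl, the liver isoform, had 177 ± 6.84 CPM in Rec, 363 ± 29 in clone1, 291 ± 39.2 in clone19 and 219.7 ± 5.6 in Fh1_fl_fl and rose by 0.73 ± 0.07 in clone1 and 0.41 ± 0.07 in clone19. Pfkm overlaps Senp1, and Pfkp overlaps Pitrm1, on the other strand. Without a stated strand setting, reads from the stretch such a pair shares cannot be assigned with certainty.

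The makeup of phosphofructokinase transcripts therefore differed between the clones. Per kilobase, Pfkm made up 43.9 ± 1.08% in Rec, 60.2 ± 2.27% in clone1, 39.6 ± 2.23% in clone19 and 38.3 ± 1.13% in Fh1_fl_fl. The share of Pfkp was 2.42 ± 0.345% in Rec, 5.02 ± 0.213% in clone1, 12.1 ± 0.604% in clone19 and 2.25 ± 0.197% in Fh1_fl_fl. Pfkl held the remainder, 53.7 ± 0.942% in Rec, 34.8 ± 2.29% in clone1, 48.4 ± 2.68% in clone19 and 59.5 ± 1.06% in Fh1_fl_fl. The ratio of Pfkp to Pfkm rose by 0.51 in clone1 and 2.38 in clone19 over Fh1_fl_fl, and was 1.87 lower in clone1 than in clone19 (log2, exact permutation test, adjusted p = 0.0108 each). In Rec over Fh1_fl_fl that ratio differed by -0.09 (adjusted p = 0.509, exact permutation test).

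Aldoa (ENSMUSG00000030695; GRCm38 chromosome 7, 126795234 to 126800751, minus strand) encodes the muscle and general form of aldolase and had the highest level per length of all 40 genes in both clones. It had 595, 687, 633, 623 and 615 CPM in Rec, 4854, 3978, 3789, 3819.6 and 4213 in clone1, 2604, 2236, 2465, 2621 and 2508 in clone19, and 1101, 1088, 1207, 1109.9 and 1168 in Fh1_fl_fl libraries. No 2 groups overlapped, and Rec was lowest. Aldoa rose by 1.86 ± 0.07 in clone1 and 1.13 ± 0.07 in clone19 over Fh1_fl_fl, and fell by 0.85 ± 0.07 in Rec (adjusted p = 5.05e-19, 3.01e-14 and 1.34e-11). Its mean level was 217 RPKM (CPM per kilobase of exon) in Rec, 1419 in clone1, 854 in clone19 and 389.8 in Fh1_fl_fl. Reads from the stretch that Aldoa shares with Fam57b on the other strand cannot be assigned with certainty. Aldoc, the brain isoform, stayed minor at 3.11 ± 0.855 CPM in Rec, 21.8 ± 2.34 in clone1, 13 ± 1.38 in clone19 and 8.9 ± 1.42 in Fh1_fl_fl. It followed the same order of groups, with 1.29 ± 0.12 in clone1, 0.53 ± 0.13 in clone19 and -1.55 ± 0.15 in Rec over Fh1_fl_fl. The ratio of Aldoc to Aldoa fell by 0.56 in clone1, 0.58 in clone19 and 0.68 in Rec over Fh1_fl_fl (exact permutation test, adjusted p = 0.0108, 0.0108 and 0.0202), and the call in Rec was lost without Fh1_fl_fl replicate 5 (exact permutation test, adjusted p = 0.0505).

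**Figure D2:**
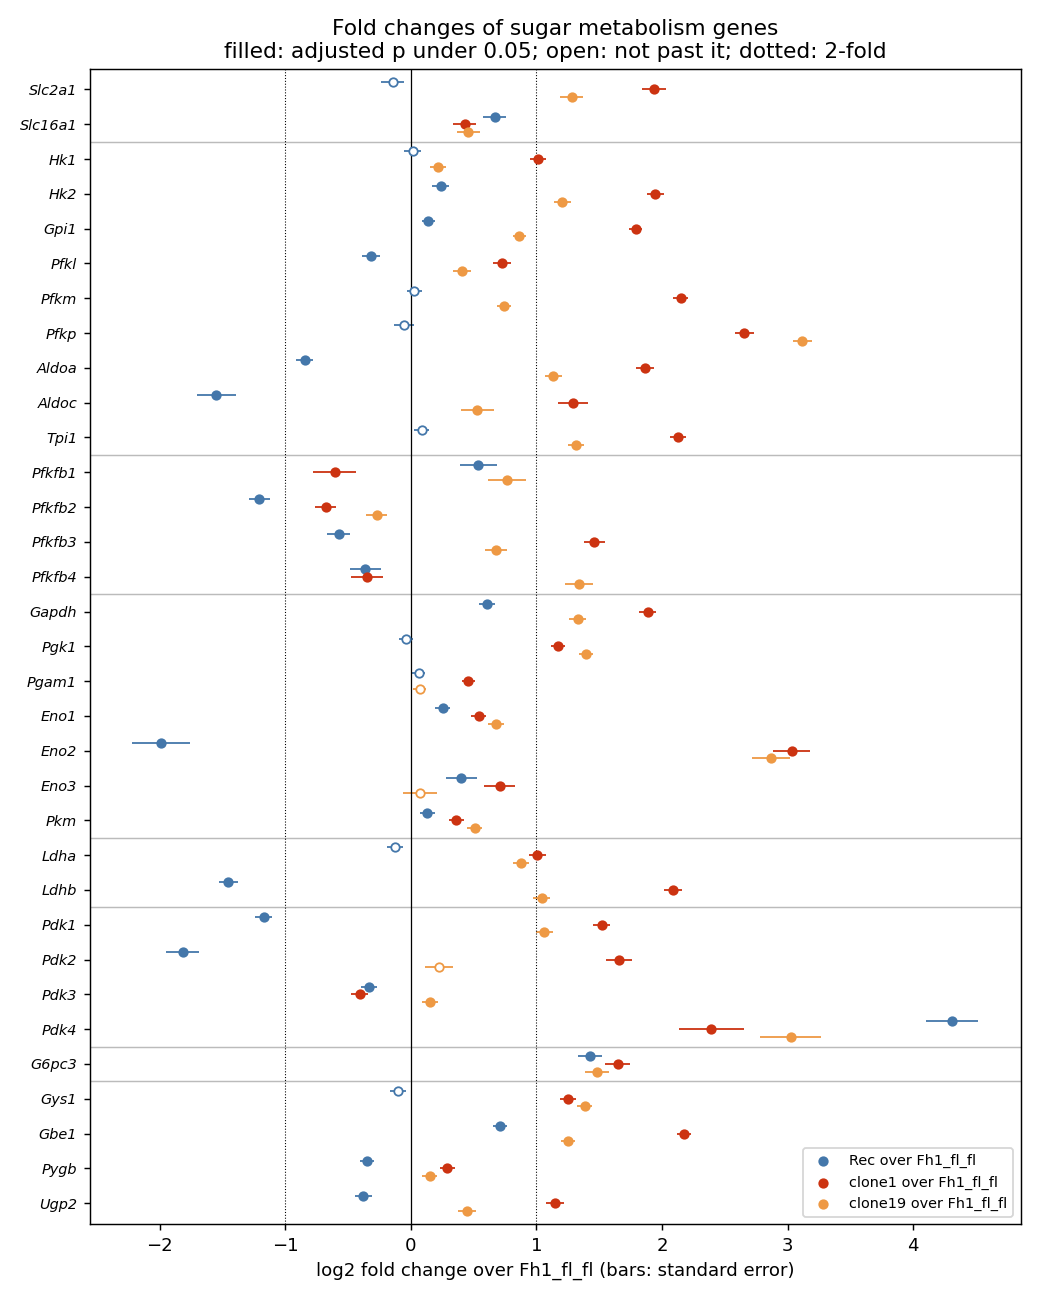
Log2 fold change of each tested gene over Fh1_fl_fl in Rec, clone1 and clone19, with bars for the standard error, filled points where the adjusted p was under 0.05, and dotted lines at 2-fold. Of the 33 genes, Pdk4 had the largest increase in Rec (4.31 ± 0.21), Eno2 in clone1 (3.03 ± 0.15) and Pfkp in clone19 (3.12 ± 0.07).

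The PFKFB genes encode bifunctional enzymes that make and remove fructose 2,6-bisphosphate, the strongest activator of phosphofructokinase, and the 4 isoforms moved in different directions. Pfkfb3 (ENSMUSG00000026773; GRCm38 chromosome 2, 11471433 to 11554077, minus strand), the form with the highest kinase activity relative to phosphatase, had 15.1, 12.1, 15.4, 16.2 and 13.8 CPM in Rec, 50.6, 62.8, 58.9, 58.2 and 66.2 in clone1, 36.7, 28.9, 37.6, 31.9 and 37.9 in clone19, and 22, 20.9, 21.1, 21.6 and 22.2 in Fh1_fl_fl libraries. The 4 groups did not overlap, with clone1 highest and Rec lowest. Pfkfb3 rose by 1.46 ± 0.08 in clone1 and 0.67 ± 0.09 in clone19, and fell by 0.57 ± 0.09 in Rec over Fh1_fl_fl (adjusted p = 7.48e-15, 1.15e-07 and 3.39e-06).

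Pfkfb4 (ENSMUSG00000025648; GRCm38 chromosome 9, 108991778 to 109032228, plus strand), the testis form, which is also made in many tumours, had 8.69, 6.29, 8.18, 6.59 and 7.59 CPM in Rec, 9.46, 8.14, 6.05, 8.09 and 6.33 in clone1, 26.9, 22.5, 26.3, 23.3 and 23.8 in clone19, and 11.7, 9.56, 8.84, 8.31 and 9.58 in Fh1_fl_fl libraries. Its clone19 libraries were far above all others, while Fh1_fl_fl overlapped both Rec and clone1. Pfkfb4 rose by 1.34 ± 0.11 in clone19 over Fh1_fl_fl (adjusted p = 4.47e-11). In clone1 it was -0.35 ± 0.13, a call lost without clone1 replicate 3, clone1 replicate 5 or Fh1_fl_fl replicate 1 (adjusted p from 0.0551 to 0.138). The difference of -1.68 ± 0.12 for clone1 over clone19 was over 2-fold (adjusted p = 9.84e-06 by the test against that bound).

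Pfkfb1 (ENSMUSG00000025271; GRCm38 chromosome X, 150588229 to 150643878, plus strand), the liver and muscle form, had 8.13, 7.87, 10.2, 9.77 and 8.69 CPM in Rec, 5.38, 3.97, 3.85, 4.12 and 2.95 in clone1, 8.96, 13.6, 13.5, 9.45 and 7.47 in clone19, and 5.88, 5.61, 6.73, 6.66 and 5.84 in Fh1_fl_fl libraries. The clone1 libraries lay below, and the clone19 and Rec libraries above, every Fh1_fl_fl library. Pfkfb1 fell by 0.61 ± 0.17 in clone1 and rose by 0.77 ± 0.15 in clone19 and 0.54 ± 0.15 in Rec (adjusted p = 0.00221, 6.36e-05 and 0.00212). It overlaps Apex2 on the other strand. Pfkfb2, the heart and kidney form, had 20.6 ± 2.22 CPM in Rec, 30.1 ± 3.97 in clone1, 39.8 ± 2.9 in clone19 and 47.8 ± 3.28 in Fh1_fl_fl. It fell in each group over Fh1_fl_fl, by 1.21 ± 0.09 in Rec, 0.68 ± 0.08 in clone1 and 0.27 ± 0.08 in clone19, and was the only one of the 33 genes called lower in clone19.

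Summed per kilobase, the 4 PFKFB genes stood at 8.52 RPKM in Rec, 14.6 in clone1, 17.7 in clone19 and 12.9 in Fh1_fl_fl. The leading isoform differed between groups. Pfkfb2 made up 33.4 ± 2.76% in Rec, 28.4 ± 2.78% in clone1, 31 ± 0.643% in clone19 and 50.9 ± 1.59% in Fh1_fl_fl. Pfkfb3 made up 22.5 ± 1.28% in Rec, 53.8 ± 4.1% in clone1, 25.8 ± 2.34% in clone19 and 22.1 ± 0.47% in Fh1_fl_fl, and so was the main form in clone1. Pfkfb4 made up 18 ± 1.88% in Rec, 10.8 ± 2.33% in clone1, 28.4 ± 1.36% in clone19 and 15.2 ± 1.74% in Fh1_fl_fl, and Pfkfb1 made up 26.1 ± 2.29% in Rec, 6.98 ± 1.81% in clone1, 14.8 ± 3.66% in clone19 and 11.9 ± 1.22% in Fh1_fl_fl. The ratio of Pfkfb2 to Pfkfb3 fell by 2.13 in clone1 and 0.94 in clone19 over Fh1_fl_fl (exact permutation test, adjusted p = 0.0108 each). The ratio of Pfkfb4 to Pfkfb3 fell by 1.79 in clone1 but rose by 0.68 in clone19, with the same adjusted p in the exact permutation test.

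In lower glycolysis all 7 tested genes rose in clone1 and 5 in clone19, against 38% and 36.8% of all genes. Gapdh, glyceraldehyde phosphate dehydrogenase, had 198 ± 16.5 CPM in Rec, 481 ± 26.4 in clone1, 327 ± 32 in clone19 and 130.3 ± 3.23 in Fh1_fl_fl. It rose by 1.88 ± 0.07 in clone1, 1.33 ± 0.07 in clone19 and 0.61 ± 0.07 in Rec over Fh1_fl_fl, with no overlap. Gapdh has many processed pseudogenes, and reads that align to several places enter no gene here, so its level is uncertain. Such reads were 28.8 to 40.3% of a library. The levels and isoform shares of other genes with close copies elsewhere carry the same limit. Pgk1 (ENSMUSG00000062070; GRCm38 chromosome X, 106187100 to 106203699, plus strand), phosphoglycerate kinase, which makes ATP, had 506 ± 18.7 CPM in Rec, 1168 ± 28.6 in clone1, 1365 ± 89.5 in clone19 and 519.6 ± 29.2 in Fh1_fl_fl. It rose by 1.17 ± 0.05 in clone1 and 1.39 ± 0.05 in clone19 and was higher in clone19 than in clone1 in every library. Pgam1, phosphoglycerate mutase, had 256 ± 10.2 CPM in Rec, 337 ± 16.9 in clone1, 258 ± 12.9 in clone19 and 245 ± 9.23 in Fh1_fl_fl, so that clone1 alone was called over Fh1_fl_fl (0.46 ± 0.05, adjusted p = 7.25e-09). Its change in clone19 was 0.07 ± 0.05 (adjusted p = 0.218). Pgam2, the muscle mutase gene, had 0 counts in all 20 libraries.

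The isoforms of enolase, which makes phosphoenolpyruvate, changed by very different amounts. Eno2 (ENSMUSG00000004267; GRCm38 chromosome 6, 124760053 to 124769673, minus strand), the neuronal form, had 1.03, 0.688, 2.05, 1.77 and 1.56 CPM in Rec, 46.8, 50.2, 48.3, 55.4 and 36.3 in clone1, 42.8, 40.8, 46.6, 38.2 and 43 in clone19, and 5.83, 4.05, 3.81, 7.02 and 7.57 in Fh1_fl_fl libraries. The 2 clones overlapped each other far above the rest, and the 5 Rec libraries were below the 5 of Fh1_fl_fl. Eno2 rose by 3.03 ± 0.15 in clone1 and 2.87 ± 0.15 in clone19, and fell by 1.99 ± 0.23 in Rec over Fh1_fl_fl (adjusted p = 1.87e-16, 1.58e-15 and 1.76e-08). In Rec it was 32.5-fold below clone1 and 29-fold below clone19. Eno1 (ENSMUSG00000063524; GRCm38 chromosome 4, 150236721 to 150248879, plus strand), the general form, had 863 ± 41.7 CPM in Rec, 1053 ± 81.5 in clone1, 1159 ± 99 in clone19 and 725 ± 22 in Fh1_fl_fl, and rose by 0.54 ± 0.06 in clone1 and 0.68 ± 0.06 in clone19. Eno3, the muscle form, had 10.9 ± 1.73 CPM in Rec, 13.5 ± 1.59 in clone1, 8.56 ± 0.95 in clone19 and 8.33 ± 1.2 in Fh1_fl_fl and rose by 0.71 ± 0.12 in clone1, while its clone19 libraries overlapped those of Fh1_fl_fl (0.07 ± 0.13, adjusted p = 0.632).

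Eno2 nevertheless remained a minor part of enolase reads. Per kilobase its share was 0.183 ± 0.0745% in Rec, 4.75 ± 0.876% in clone1, 3.94 ± 0.426% in clone19 and 0.852 ± 0.243% in Fh1_fl_fl. The ratio of Eno2 to Eno1 rose by 2.56 in clone1 and 2.27 in clone19 and fell by 2.25 in Rec over Fh1_fl_fl (exact permutation test, adjusted p = 0.0108 each). The Pkm gene, whose splice forms of pyruvate kinase are not separated in gene counts, had 3227 ± 110.2 CPM in Rec, 3787 ± 204 in clone1, 4187 ± 298 in clone19 and 2946 ± 81.6 in Fh1_fl_fl and was the most abundant of the 40 per length in Rec and Fh1_fl_fl. Pkm rose by 0.36 ± 0.06 in clone1 and 0.51 ± 0.06 in clone19, the smallest called increase of the lower steps in clone1. In Rec over Fh1_fl_fl its change of 0.13 ± 0.06 was called (adjusted p = 0.0461) but was -0.00101 with library totals and lost its call when any of 6 libraries was left out (adjusted p from 0.0614 to 0.0892).

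Promoter windows are shown for pairs of isoforms with unlike changes, picked after their values were seen, to compare where the core letters of the hypoxia response element occur. Windows from RefSeq on GRCm38.p6 run from 250 bases before to 50 after an annotated start, and ACGTG and GCGTG were searched on both strands, so that CACGTG counts as 2 overlapping matches. Capitals mark the matches, which read CACGT or CACGC where they lie on the other strand. One or more matches stood in 43.8% of all 32851 windows, and in 41 of 59 windows of the listed genes (69.5%), which include several windows of 1 gene. By gene, 31 of the 39 listed genes with a window held a match, against 46.7% of all genes. All genes here means the 27025 with a window, expressed in these cells or not, unlike the 12671 tested genes used elsewhere. No test compared these shares.
Eno1, chr4:150236458-150236757, plus strand: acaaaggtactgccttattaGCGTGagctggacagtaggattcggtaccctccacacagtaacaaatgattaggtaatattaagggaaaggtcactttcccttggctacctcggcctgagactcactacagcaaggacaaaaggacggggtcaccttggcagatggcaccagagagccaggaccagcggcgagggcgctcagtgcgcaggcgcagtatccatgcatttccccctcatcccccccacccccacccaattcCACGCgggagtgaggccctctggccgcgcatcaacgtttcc
Eno2, chr6:124769624-124769923, minus strand: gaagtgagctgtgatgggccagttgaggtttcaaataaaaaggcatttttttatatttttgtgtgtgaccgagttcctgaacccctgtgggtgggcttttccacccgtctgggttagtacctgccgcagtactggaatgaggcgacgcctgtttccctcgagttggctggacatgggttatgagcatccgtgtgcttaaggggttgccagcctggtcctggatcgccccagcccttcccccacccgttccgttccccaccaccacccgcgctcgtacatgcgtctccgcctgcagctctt
The Eno1 window shown held 2 matches and the Eno2 window 0, and Eno2 rose more than Eno1 in both clones. Eno1 has further RefSeq windows, each with 2 matches, that are not shown. A match is a string of letters, not a site shown to be bound, and a window without one says nothing of letters elsewhere.

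Both lactate dehydrogenase genes rose in both clones, Ldhb more than Ldha in clone1. Ldha (ENSMUSG00000063229; GRCm38 chromosome 7, 46841475 to 46855627, plus strand), the muscle subunit, which favours lactate production, had 1012, 1169.6, 1089, 1075 and 1051 CPM in Rec, 2782, 2219, 2213, 2208 and 2404 in clone1, 2161, 2223, 2183, 2224 and 2027 in clone19, and 1186, 1047, 1276, 1234 and 1146 in Fh1_fl_fl libraries. The clones overlapped each other and lay above Rec and Fh1_fl_fl, which also overlapped. Ldha rose by 1.01 ± 0.07 in clone1 and 0.88 ± 0.07 in clone19 (adjusted p = 2.17e-13 and 5.99e-12), and in Rec over Fh1_fl_fl it was -0.13 ± 0.07 (adjusted p = 0.0939).

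Ldhb (ENSMUSG00000030246; GRCm38 chromosome 6, 142490249 to 142507957, minus strand), the heart subunit, had 17.8, 20.2, 17.2, 16.2 and 17.5 CPM in Rec, 233, 207, 194, 197 and 201 in clone1, 99.4, 107, 107, 99.1 and 88.5 in clone19, and 45.9, 47.3, 55.1, 49.7 and 45.6 in Fh1_fl_fl libraries. No 2 groups overlapped, with the order clone1, clone19, Fh1_fl_fl and Rec from high to low. Ldhb rose by 2.08 ± 0.07 in clone1 and 1.04 ± 0.07 in clone19 over Fh1_fl_fl and fell by 1.45 ± 0.08 in Rec (adjusted p = 7.68e-20, 4.57e-13 and 3.44e-15). It was 11.6-fold lower in Rec than in clone1. Per kilobase, Ldhb made up 3.35 ± 0.200% in Rec, 15.6 ± 0.61% in clone1, 8.89 ± 0.403% in clone19 and 8.03 ± 0.474% in Fh1_fl_fl of lactate dehydrogenase reads. The ratio of Ldhb to Ldha rose by 1.08 in clone1 over Fh1_fl_fl and fell by 1.33 in Rec (exact permutation test, adjusted p = 0.0108 each). In clone19 it differed by 0.16 (exact permutation test, adjusted p = 0.0392), a call lost when any of 7 libraries was left out. The Ldha window below held 7 matches to the letters above, 3 or more being found in 8.93% of all windows, and the Ldhb window held 1.
Ldha, chr7:46845554-46845853, plus strand: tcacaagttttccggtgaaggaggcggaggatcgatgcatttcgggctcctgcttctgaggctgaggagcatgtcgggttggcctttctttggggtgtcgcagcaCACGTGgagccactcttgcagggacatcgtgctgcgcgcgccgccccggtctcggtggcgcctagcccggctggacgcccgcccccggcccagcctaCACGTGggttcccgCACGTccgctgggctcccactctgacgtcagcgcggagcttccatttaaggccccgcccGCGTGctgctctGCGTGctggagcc
Ldhb, chr6:142507908-142508207, minus strand: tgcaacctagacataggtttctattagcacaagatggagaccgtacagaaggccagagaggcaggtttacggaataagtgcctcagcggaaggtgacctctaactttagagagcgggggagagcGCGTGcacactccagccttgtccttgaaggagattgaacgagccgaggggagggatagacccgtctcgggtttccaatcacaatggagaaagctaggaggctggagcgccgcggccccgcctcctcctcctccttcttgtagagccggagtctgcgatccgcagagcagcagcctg
Ldha has a further RefSeq window with 2 matches that is not shown.

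**Figure D3:**
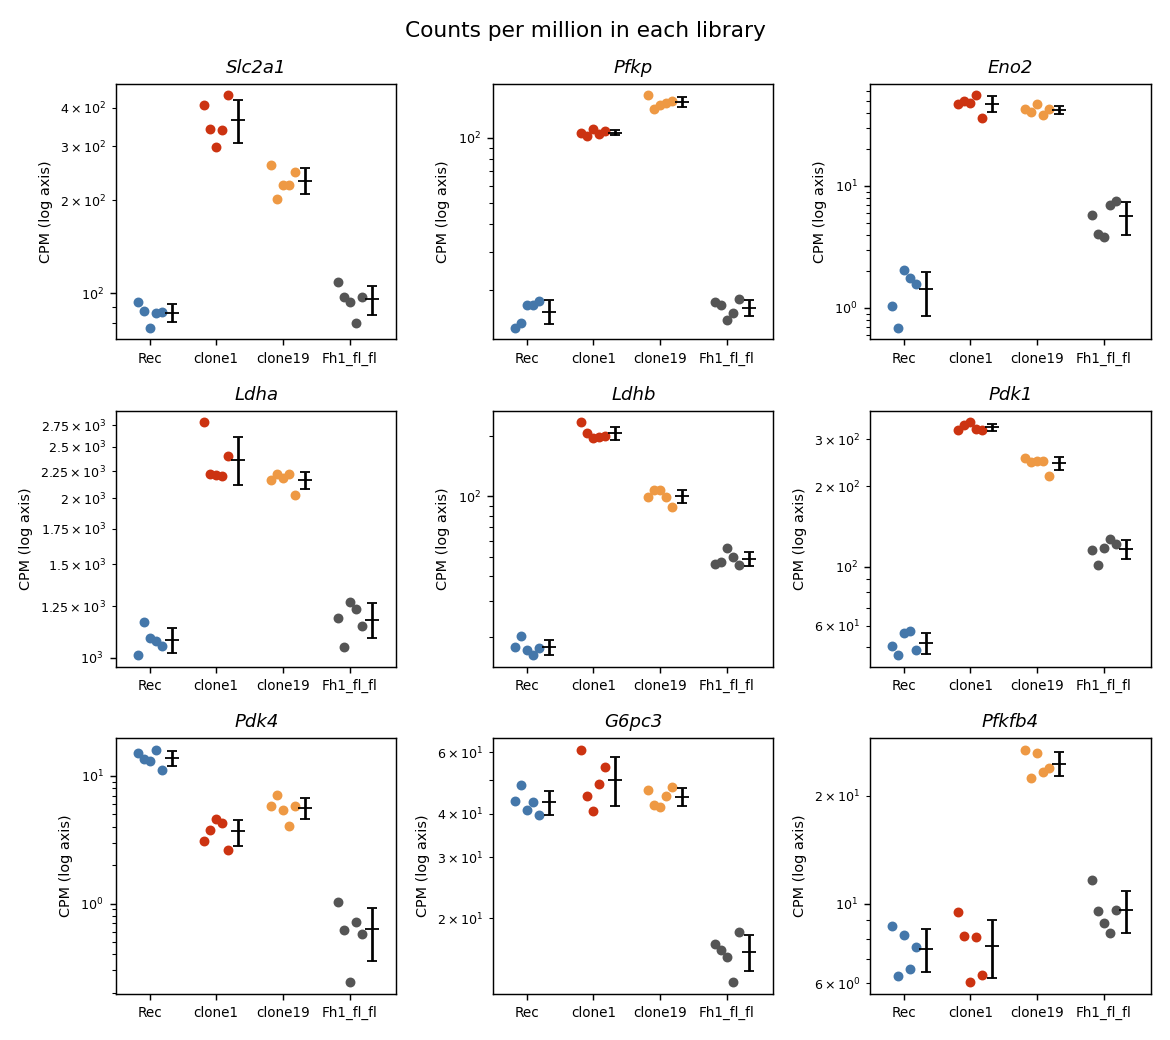
CPM of 9 genes in each library on log axes, with the mean and SD beside the 5 points of a group. Slc2a1, Pfkp, Eno2, Ldha, Ldhb and Pdk1 are higher in all clone1 and clone19 libraries than in Fh1_fl_fl, Pfkfb4 is highest in clone19 at 22.5 to 26.9 CPM, Pdk4 is highest in Rec at 11.2 to 16 CPM, and G6pc3 is higher in Rec and both clones than in Fh1_fl_fl.

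The 4 pyruvate dehydrogenase kinase genes each followed a different course. Pdk1 (ENSMUSG00000006494; GRCm38 chromosome 2, 71873224 to 71903858, plus strand), a known target of hypoxia-inducible factors, had 50.2, 46.6, 56.4, 57.2 and 48.7 CPM in Rec, 326, 341, 348, 329 and 326 in clone1, 255, 247, 249, 249 and 219.7 in clone19, and 116, 101, 117, 127 and 122 in Fh1_fl_fl libraries. The groups did not overlap, and Rec was below Fh1_fl_fl in every library. Pdk1 rose by 1.52 ± 0.06 in clone1 and 1.06 ± 0.06 in clone19 over Fh1_fl_fl, and fell by 1.17 ± 0.07 in Rec (adjusted p = 1.19e-17, 4.36e-14 and 1.52e-14). Pdk2 (ENSMUSG00000038967; GRCm38 chromosome 11, 95026258 to 95041354, minus strand), a broadly expressed form, had 1.96, 4.23, 3.11, 2.71 and 3.59 CPM in Rec, 38.2, 35.9, 32.2, 34.7 and 34.9 in clone1, 14.9, 12, 14.7, 11 and 13.2 in clone19, and 10.8, 10.6, 12.2, 11 and 11.3 in Fh1_fl_fl libraries. Clone1 lay above Fh1_fl_fl in all libraries, clone19 overlapped it, and Rec lay below. Pdk2 rose by 1.66 ± 0.10 in clone1 and fell by 1.82 ± 0.13 in Rec over Fh1_fl_fl (adjusted p = 3.03e-14 and 2.19e-12), and was 0.22 ± 0.11 in clone19 (adjusted p = 0.0798).

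Pdk3 (ENSMUSG00000035232; GRCm38 chromosome X, 93764607 to 93832201, minus strand) had 50.5, 56.8, 56.4, 55.4 and 62.7 CPM in Rec, 57.6, 50.8, 52.4, 51.3 and 56.2 in clone1, 77.1, 86.9, 76.8, 80.3 and 74.4 in clone19, and 69.5, 66, 68.3, 80.8 and 71.4 in Fh1_fl_fl libraries. Rec and clone1 overlapped each other below Fh1_fl_fl, and clone19 overlapped Fh1_fl_fl from above. Pdk3 fell by 0.33 ± 0.07 in Rec and 0.41 ± 0.07 in clone1 over Fh1_fl_fl (adjusted p = 7.13e-05 and 4.54e-06). Its change of 0.15 ± 0.07 in clone19 was called (adjusted p = 0.0429), but not with library totals, without the count filter, with the replicate number as a block or without any of 6 libraries.

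Pdk4 (ENSMUSG00000019577; GRCm38 chromosome 6, 5483351 to 5496309, minus strand), the form induced by fasting and fatty acids in many tissues, had 15, 13.6, 13.1, 16 and 11.2 CPM in Rec, 3.09, 3.78, 4.62, 4.28 and 2.6 in clone1, 5.81, 7.03, 5.43, 4.03 and 5.83 in clone19, and 1.03, 0.623, 0.243, 0.717 and 0.576 in Fh1_fl_fl libraries. Rec was highest in every library, the clones overlapped each other in the middle, and Fh1_fl_fl was lowest, with 48 counts over its 5 libraries. Pdk4 rose over Fh1_fl_fl by 4.31 ± 0.21 in Rec, 2.39 ± 0.26 in clone1 and 3.03 ± 0.24 in clone19 (adjusted p = 5.51e-16, 3.36e-09 and 1.71e-11). It was the only one of the 33 genes over 2-fold higher in Rec than in clone1 (1.92 ± 0.17), and was 1.28 ± 0.16 over clone19.

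Per kilobase, Pdk3 was the main kinase transcript in Rec and Fh1_fl_fl and Pdk1 in clone1, while clone19 had similar amounts of both. By CPM, Pdk1 averaged 51.8 in Rec, 334 in clone1, 244 in clone19 and 117 in Fh1_fl_fl. Pdk3 averaged 56.4, 53.6, 79.1 and 71.2 CPM in the same order, so by CPM Pdk1 led in clone19 and Fh1_fl_fl. The exon lengths used were 7779 bases for Pdk1 and 2561 for Pdk3, and the ranking depends on them. Pdk1 made up 19.9 ± 1.8% in Rec, 56.5 ± 1.67% in clone1, 46.1 ± 1.41% in clone19 and 32.2 ± 1.02% in Fh1_fl_fl. Pdk3 made up 65.5 ± 2.78% in Rec, 27.5 ± 1.41% in clone1, 45.4 ± 1.66% in clone19 and 59.8 ± 1.23% in Fh1_fl_fl. Pdk2 made up 2.92 ± 0.76% in Rec, 14.6 ± 0.843% in clone1, 6.13 ± 0.845% in clone19 and 7.62 ± 0.623% in Fh1_fl_fl, and Pdk4 made up 11.7 ± 1.87% in Rec, 1.38 ± 0.315% in clone1, 2.36 ± 0.427% in clone19 and 0.391 ± 0.175% in Fh1_fl_fl. The ratio of Pdk3 to Pdk2 fell by 2.06 in clone1 and rose by 1.53 in Rec over Fh1_fl_fl (exact permutation test, adjusted p = 0.0108 each). That ratio differed by -0.08 in clone19 (adjusted p = 0.575, exact permutation test). The ratio of Pdk4 to Pdk2 rose by 6.33 in Rec, the largest change of any ratio over Fh1_fl_fl (adjusted p = 0.0108, exact permutation test). The ratio of Pdk1 to Pdk2 did not pass the test in clone1 (-0.13, adjusted p = 0.124, exact permutation test). The windows of Pdk1 and Pdk4, which were highest in different groups, held 2 matches and 1.
Pdk1, chr2:71872974-71873273, plus strand: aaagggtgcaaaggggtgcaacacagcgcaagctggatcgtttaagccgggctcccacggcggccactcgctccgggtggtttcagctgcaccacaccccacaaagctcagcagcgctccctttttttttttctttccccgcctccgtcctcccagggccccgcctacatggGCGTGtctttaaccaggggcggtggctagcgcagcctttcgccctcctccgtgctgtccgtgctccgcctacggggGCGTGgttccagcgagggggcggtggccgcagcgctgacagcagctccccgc
Pdk4, chr6:5496229-5496528, minus strand: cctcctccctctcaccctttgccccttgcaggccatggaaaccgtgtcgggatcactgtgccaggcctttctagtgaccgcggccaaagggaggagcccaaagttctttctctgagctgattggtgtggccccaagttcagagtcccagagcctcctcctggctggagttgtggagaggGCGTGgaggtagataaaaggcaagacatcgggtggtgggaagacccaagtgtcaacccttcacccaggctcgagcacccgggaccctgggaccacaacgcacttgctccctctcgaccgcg
A second RefSeq window of Pdk1 held 0 matches and is not shown.

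**Figure D4:**
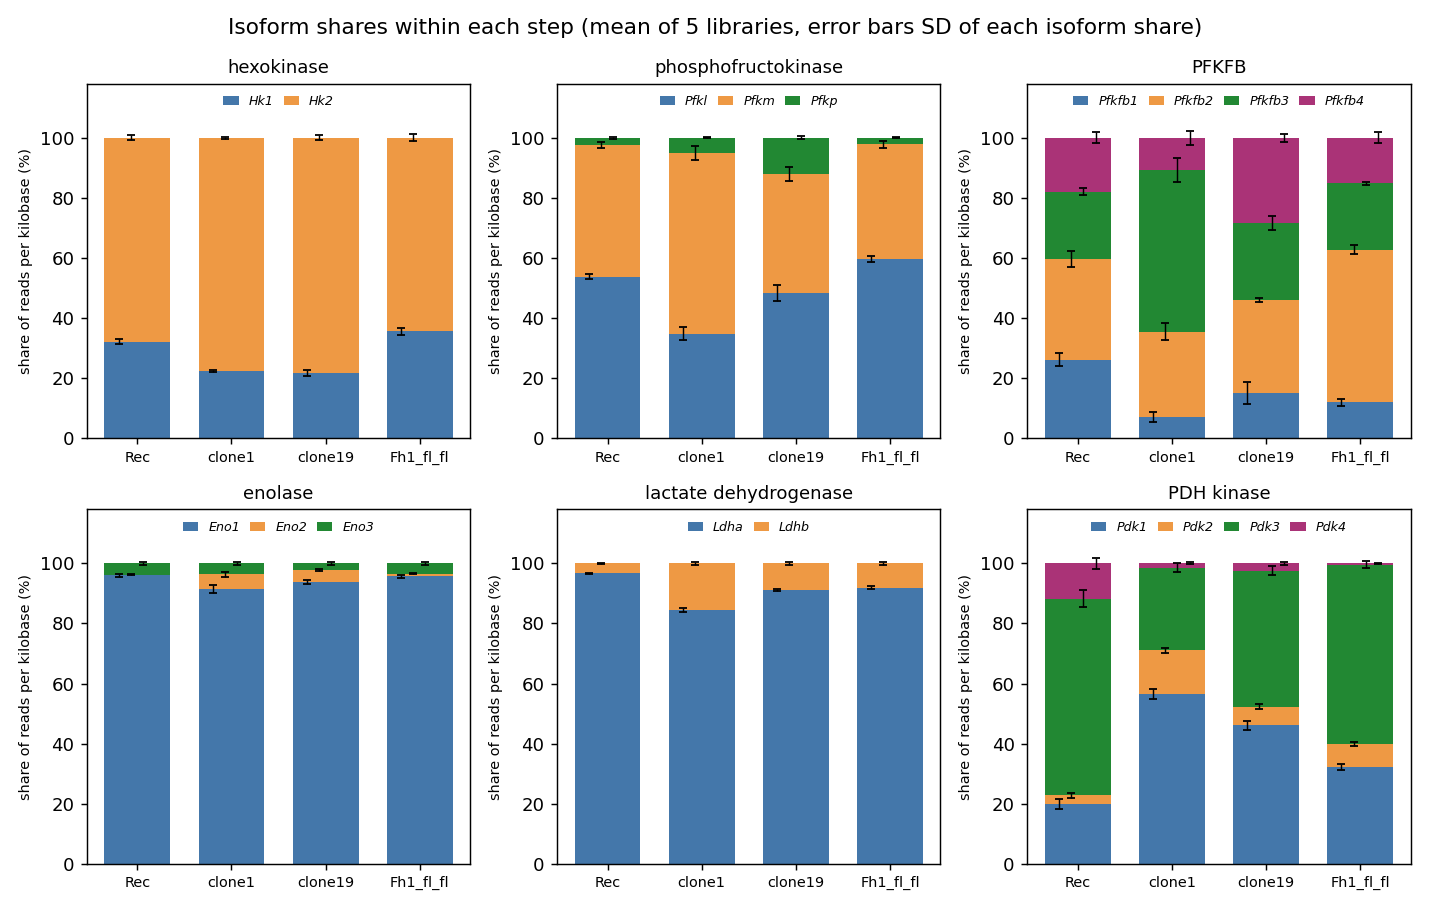
Share of each isoform in the reads per kilobase of its step, as stacked bars of group means over 5 libraries with SD bars, for 6 steps. Clone1 is set apart by Pfkm (60.2%) and Pfkfb3 (53.8%), and clone19 by larger parts of Pfkp (12.1%) and Pfkfb4 (28.4%). Pdk1 has a larger part in clone1 (56.5%) and clone19 (46.1%) than in Rec (19.9%) and Fh1_fl_fl (32.2%). The group means of Eno1 and Ldha are over 84% of their steps in every group.

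Over all steps, 14 of 19 listed isoform ratios had both genes tested, and 68 of their 84 comparisons between groups had an adjusted p under 0.05 in the exact permutation test. These were 12 in clone1 over Fh1_fl_fl, 12 in clone19 over Fh1_fl_fl, 12 in Rec over clone1, 11 in Rec over clone19, 10 in Rec over Fh1_fl_fl and 11 in clone1 over clone19, and the comparisons share libraries. Ratios of other gene pairs were not computed, so no share over all genes stands beside this count. Of all single genes, 65.1 to 78.6% were called per comparison, so the count of ratios says little by itself.

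Of the 4 gluconeogenesis genes, 3 were at or near 0. Fbp1, the liver and kidney fructose bisphosphatase, had 0 counts in all 20 libraries. Fbp2, the muscle form, had 0 counts in Rec, 5 in clone1, 3 in clone19 and 26 in Fh1_fl_fl, where all 5 libraries had a count. Pck1, the cytosolic phosphoenolpyruvate carboxykinase, had 0 counts in Rec, 4 in clone1, 0 in clone19 and 3 in Fh1_fl_fl. Fbp1 and Pck1 are known for the gluconeogenic proximal tubule. Of the markers of that segment, Slc34a1, Slc22a6 and Slc13a3 were also at 0, whereas Lrp2, Cubn and Aqp1 were detected in every group at the levels above. G6pc3 (ENSMUSG00000034793; GRCm38 chromosome 11, 102189620 to 102194081, plus strand), the widely expressed glucose 6-phosphatase, had 43.5, 48.4, 40.9, 43.2 and 39.6 CPM in Rec, 61.2, 45, 40.6, 48.7 and 54.5 in clone1, 46.8, 42.3, 41.8, 44.9 and 47.6 in clone19, and 16.9, 16.2, 15.5, 13.1 and 18.2 in Fh1_fl_fl libraries. Rec, clone1 and clone19 overlapped each other and lay above every Fh1_fl_fl library. G6pc3 rose by 1.43 ± 0.10 in Rec, 1.65 ± 0.10 in clone1 and 1.48 ± 0.10 in clone19 (adjusted p = 6.48e-13, 1.6e-14 and 3.66e-13), and Rec over clone19 was -0.06 ± 0.09 (adjusted p = 0.595).

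All 4 tested glycogen genes rose in both clones, where 38% of all genes rose in clone1 and 36.8% in clone19. Gbe1 (ENSMUSG00000022707; GRCm38 chromosome 16, 70313949 to 70569716, plus strand), the branching enzyme, had 77.1, 79.7, 77.6, 73.6 and 83.8 CPM in Rec, 215, 216, 228, 201 and 226 in clone1, 113, 120.1, 117, 112 and 109 in clone19, and 47.2, 44.7, 48, 52 and 48.3 in Fh1_fl_fl libraries. The 4 groups did not overlap, and Rec lay between clone19 and Fh1_fl_fl. Gbe1 rose over Fh1_fl_fl by 0.71 ± 0.06 in Rec, 2.18 ± 0.06 in clone1 and 1.25 ± 0.06 in clone19 (adjusted p = 1.34e-11, 3.02e-22 and 8.89e-17). Gys1, the glycogen synthase of muscle and most tissues, had 41.4 ± 2.76 CPM in Rec, 106 ± 5.03 in clone1, 116 ± 9.09 in clone19 and 44.4 ± 1.02 in Fh1_fl_fl. It rose by 1.25 ± 0.06 in clone1 and 1.38 ± 0.06 in clone19, and the clones overlapped. Reads from the stretch that Gys1 shares with Ruvbl2 on the other strand cannot be assigned with certainty.

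Ugp2, which makes UDP-glucose, the building block of glycogen, had 142 ± 7.25 CPM in Rec, 408 ± 22 in clone1, 251 ± 29.9 in clone19 and 184 ± 15.9 in Fh1_fl_fl. Its changes were -0.38 ± 0.07 in Rec, 1.15 ± 0.07 in clone1 and 0.45 ± 0.07 in clone19 over Fh1_fl_fl, all called. Pygb, the brain form of glycogen phosphorylase, which releases glucose units, changed least of the 4 in the clones, with 86.8 ± 4.55 CPM in Rec, 135 ± 8.72 in clone1, 123 ± 8.48 in clone19 and 111 ± 4.44 in Fh1_fl_fl. It rose by 0.29 ± 0.06 in clone1 and fell by 0.35 ± 0.06 in Rec. Its clone19 libraries overlapped those of Fh1_fl_fl, and the change of 0.15 ± 0.06 was not called with library totals (adjusted p = 0.738) or without clone19 replicate 1, clone19 replicate 5 or Fh1_fl_fl replicate 4 (0.0531 to 0.0655). Pygl, the liver phosphorylase, had 1 count in Rec and 0 elsewhere.

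The share of genes called in Rec over Fh1_fl_fl, 24 of 33, was near the 70.8% of all tested genes, so the count says nothing particular about them. The 9 not called in Rec over Fh1_fl_fl were Slc2a1, Hk1, Pfkm, Pfkp, Tpi1, Pgk1, Pgam1, Ldha and Gys1, although a p that misses the threshold does not show equal levels, and with library totals Slc2a1, Pgk1, Ldha and Gys1 were called lower. Over 2-fold, Pdk4 and G6pc3 were higher and Aldoc, Pfkfb2, Eno2, Ldhb, Pdk1 and Pdk2 lower, against 3.61% and 7.44% of all genes. Of these, Pfkfb2 and Pdk1 were not over 2-fold by DESeq2 or without some single libraries. The 3 genes higher in Rec than in clone1 were Slc16a1, Pfkfb1 and Pdk4, and those higher in Rec than in clone19 were Slc16a1, Eno3 and Pdk4, of which Slc16a1 lost its calls as given above and Eno3 lost its call over clone19 without Rec replicate 1, Rec replicate 3 or clone19 replicate 1 (adjusted p from 0.0549 to 0.0848).

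Between the clones, most upper steps were higher in clone1. Of the 9 genes of upper glycolysis, 8 were higher in clone1 than in clone19 and Pfkp was lower (-0.46 ± 0.07). Among all genes, 31.6% were higher and 33.5% lower in clone1 than in clone19. Pfkm and Pdk2 were over 2-fold higher in clone1, at 1.41 ± 0.06 and 1.44 ± 0.11, against 4.79% of all genes in each direction. Pfkfb1 and Pfkfb4 were over 2-fold lower in clone1, at -1.37 ± 0.17 and -1.68 ± 0.12, but Pfkfb1 lost that call under most other settings. Genes without a call between the clones were Slc16a1, Eno1, Eno2, Ldha, G6pc3 and Gys1, and Ldha was called by DESeq2 (0.15 on the log2 scale, adjusted p = 0.0308). The lower value of Pkm in clone1 and the higher one of Pygb lost their calls when any of 8 and any of 5 libraries was left out.

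Other genes of the pathway, from lists of sugar metabolism, moved in both directions. Among other sugar transport and glycolysis genes, 11 of 17 tested were higher in clone1 over Fh1_fl_fl and 5 lower, and 9 were higher and 6 lower in clone19, against 38% and 40.5% of all genes in clone1 and 36.8% and 36.1% in clone19, with medians of 0.73 and 0.40. Sord, sorbitol dehydrogenase of the polyol route, had 9.08 ± 1.03 CPM in Rec, 131 ± 4.94 in clone1, 41.6 ± 4.11 in clone19 and 16.8 ± 1.96 in Fh1_fl_fl. Akr1b3, aldose reductase of the same route, had 853 ± 44.9 CPM in Rec, 616 ± 56.7 in clone1, 429 ± 16.8 in clone19 and 2477 ± 312 in Fh1_fl_fl and fell by 1.54 ± 0.08 in Rec, 2.01 ± 0.08 in clone1 and 2.53 ± 0.08 in clone19 over Fh1_fl_fl. Sord, by contrast, rose by 2.95 ± 0.08 in clone1 and 1.30 ± 0.08 in clone19, and fell by 0.88 ± 0.09 in Rec. Gpd1l, a glycerol phosphate dehydrogenase-like gene, fell in all 3, with 69.9 ± 5.41 CPM in Rec, 45.7 ± 1.86 in clone1, 67.7 ± 2.52 in clone19 and 201 ± 7.26 in Fh1_fl_fl. Galk1, which phosphorylates galactose, Khk, which phosphorylates fructose, and Adpgk, an ADP-dependent glucokinase, rose in both clones. Galk1 averaged 50.9 ± 6.62 CPM in Rec, 151 ± 13.4 in clone1, 84.8 ± 7.54 in clone19 and 43.8 ± 2.69 in Fh1_fl_fl. Khk averaged 5.22 ± 0.862 CPM in Rec, 21 ± 1.78 in clone1, 14.9 ± 1.39 in clone19 and 8.59 ± 0.939 in Fh1_fl_fl. Adpgk averaged 54.2 ± 3.0 CPM in Rec, 53.8 ± 8.98 in clone1, 95.6 ± 4.34 in clone19 and 32.4 ± 2.33 in Fh1_fl_fl, so that it was highest in clone19.

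Among genes that handle lactate and pyruvate, 15 of 18 tested were higher and 1 lower in clone1, and 10 higher and 3 lower in clone19, against 38% and 40.5% of all genes in clone1 and 36.8% and 36.1% in clone19. Me1, the cytosolic malic enzyme, which makes pyruvate from malate, had 255 ± 8.22 CPM in Rec, 1219.5 ± 53.4 in clone1, 573 ± 27.1 in clone19 and 248 ± 13.6 in Fh1_fl_fl. It rose by 2.30 ± 0.05 in clone1 and 1.21 ± 0.05 in clone19 (adjusted p = 4.52e-23 and 3.87e-17), and in Rec over Fh1_fl_fl was 0.04 ± 0.05 (adjusted p = 0.526). Pcx, pyruvate carboxylase, had 18.4 ± 1.91 CPM in Rec, 77.8 ± 10.9 in clone1, 74.6 ± 10.5 in clone19 and 23.9 ± 1.95 in Fh1_fl_fl. Pdp1, the phosphatase that opposes the kinases above, had 18.7 ± 1.23 CPM in Rec, 73.4 ± 8.04 in clone1, 34.3 ± 4.27 in clone19 and 22.4 ± 2.14 in Fh1_fl_fl and rose in both clones. The chaperones of monocarboxylate transporters diverged. Bsg, basigin, had 421 ± 35.6 CPM in Rec, 815 ± 114 in clone1, 625 ± 20.4 in clone19 and 318 ± 19.8 in Fh1_fl_fl and rose in both clones, whereas Emb, embigin, had 20.3 ± 1.8 CPM in Rec, 51.1 ± 8.83 in clone1, 5.27 ± 0.99 in clone19 and 21.6 ± 1.82 in Fh1_fl_fl, rising by 1.24 ± 0.10 in clone1 and falling by 2.08 ± 0.14 in clone19 over Fh1_fl_fl.

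For glycogen, 12 of 21 further genes tested were higher and 3 lower in clone1, and 11 higher and 5 lower in clone19, against 38% and 40.5% of all genes in clone1 and 36.8% and 36.1% in clone19. Stbd1, which tethers glycogen for its transport to lysosomes, had 29.8 ± 1.97 CPM in Rec, 184 ± 16.9 in clone1, 88.1 ± 3.99 in clone19 and 8.42 ± 0.596 in Fh1_fl_fl and rose by 4.45 ± 0.08 in clone1, 3.38 ± 0.08 in clone19 and 1.82 ± 0.08 in Rec (adjusted p = 1.17e-25, 5.49e-23 and 4.8e-17). Gaa, the lysosomal enzyme that degrades glycogen, had 51.3 ± 5.94 CPM in Rec, 233 ± 37.2 in clone1, 208 ± 37.5 in clone19 and 78.8 ± 11 in Fh1_fl_fl. Epm2a, the laforin gene, and Ppp1r3f, a glycogen-targeting phosphatase subunit, were over 2-fold higher in clone19, with 2.4 ± 0.459 CPM in Rec, 1.56 ± 0.392 in clone1, 5.69 ± 0.601 in clone19 and 1.74 ± 0.679 in Fh1_fl_fl for Epm2a. Ppp1r3f averaged 3.72 ± 0.39 CPM in Rec, 6.95 ± 0.202 in clone1, 15.4 ± 0.892 in clone19 and 5.09 ± 0.57 in Fh1_fl_fl.

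Of the other gluconeogenesis genes, 4 of 5 tested were higher in each clone over Fh1_fl_fl and the other was not called, where 38% of all genes were higher in clone1 and 36.8% in clone19. Pck2, the mitochondrial phosphoenolpyruvate carboxykinase, had 132 ± 4.67 CPM in Rec, 134 ± 15.2 in clone1, 85 ± 8.5 in clone19 and 59.8 ± 4.19 in Fh1_fl_fl. It rose by 1.14 ± 0.07 in Rec, 1.16 ± 0.07 in clone1 and 0.51 ± 0.08 in clone19. Got1, the cytosolic aspartate aminotransferase of the malate-aspartate shuttle, had 272 ± 17 CPM in Rec, 428 ± 30.1 in clone1, 294 ± 9.38 in clone19 and 159.7 ± 7.61 in Fh1_fl_fl and rose in all 3 over Fh1_fl_fl.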

How the data were processed

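RNA-seq counts per gene were analysed for 20 libraries, 5 in each of Rec, clone1, clone19 and Fh1_fl_fl. The authors deposited raw read counts per Ensembl gene, with no normalization. Per the submitters' processing notes, TopHat2 2.0.4, HTSeq 0.5.3p9, DESeq 1.10.1 and GRCm38 were used. For the annotation release and strand setting, the sources used here give nothing. Summary lines that name no gene were left out, namely reads without a unique alignment (28.8 to 40.3% of a library), without a feature (3.28 to 6.73%) and ambiguous (0.462 to 0.653%). Of 39179 genes, 37607 had a symbol.

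Genes were filtered with filterByExpr, which left 12671 and removed 26508, scaled by TMM and fitted with edgeR 4.0.16 (limma 3.58.1, R 4.3.3), with 1 mean per group, all 20 libraries sharing the estimate of spread. The 6 comparisons were tested by quasi-likelihood with Benjamini-Hochberg adjustment over all genes, with a further test against a log2 bound of 1. Levels per length are RPKM computed from the counts by GENCODE M21 exon length. That length merges all annotated exons of a gene and may exceed the transcript present, so shares between isoforms depend on it. Isoform ratios, with 0.5 added to each count, were compared by a two-sided exact permutation test and adjusted over 84 comparisons. The fit was tested on simulated data. Gene totals were 5988447 to 18972176, and 3 counts, the limit a count of 0 allows, cover counting error only. No 2 libraries held identical values. Annotated genes overlap 15 of the 40, and without strand, reads from a shared stretch cannot be assigned with certainty.

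The 40 genes and all lists were chosen with earlier results of these data known. Further pathway genes are named where they pass the 2-fold bound in either clone over Fh1_fl_fl and reach 5 CPM in 1 group mean, at most 8 per list by size of change; a gene that this rule names is not reported here. Alternatives were RLE scaling, library totals, no count filter, DESeq2 1.42.0, only the 2 groups compared, the replicate number as a block, leaving out Gm42418, leaving out each library, and an offset of 2 in the ratios.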

Additional observations from a re-analysis of the deposited data

Results flagged for a closer look

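In 132 sets of 5 libraries, 1 for each tested gene in each group, 6 held a library apart from the other 4 by Dixon's ratio of gap to range, whose 95% critical value for 5 is 0.71. Chance gives about 1 in 20 sets. Hk1 in clone1 was 282 CPM in replicate 5 against 246 to 256 in the others (ratio 0.718). Gpi1 in Rec was 420.4 CPM in replicate 2 against 383 to 391 (0.803). Pfkm in Rec was 65.4 CPM in replicate 4 against 72.4 to 74.8 (0.745). Pdk1 in clone19 was 219.7 CPM in replicate 5 against 247 to 255 (0.753). Gys1 in Fh1_fl_fl was 46.2 CPM in replicate 3 against 43.8 to 44.2 (0.804), and Pygb there was 119 CPM in replicate 2 against 108 to 110 (0.778).

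In all, 4 genes had opposite directions in a pair of comparisons, with the difference tested by edgeR as clone1 over clone19. Pfkfb1 was lower in clone1 and higher in clone19 over Fh1_fl_fl, a difference of -1.37 ± 0.17 on the log2 scale (adjusted p = 8.13e-08). Pfkfb4 did the same, with -1.68 ± 0.12 (adjusted p = 3.26e-12). Pdk3 likewise differed by -0.56 ± 0.07 (adjusted p = 6.89e-08). Eno3 was lower in Rec than in clone1 and higher in Rec than in clone19, which differ by 0.63 ± 0.13 (adjusted p = 0.000157). Some of the calls behind these directions rest on single libraries. Eno3 lost its call in Rec over clone1 without Rec replicate 5 or clone1 replicate 4 (adjusted p from 0.071 to 0.0785) and in Rec over clone19 without any of 3 libraries (0.0549 to 0.0848). Pfkfb4 in clone1 lost its call without any of 3 libraries (0.0551 to 0.138), and Pdk3 in clone19 without any of 6 (0.0565 to 0.127).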

How the results depend on the processing

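Of 198 fold changes of the 33 genes, 195 kept direction and call by DESeq2, 196 with RLE scaling, 191 without the count filter, 195 with only the 2 groups compared, 194 without Gm42418 and 177 with library totals. Library totals moved the median of all genes to -0.17 in clone1, -0.12 in clone19 and -0.17 in Rec over Fh1_fl_fl. There, 6 of the 33 genes were higher in Rec, against 11 with TMM, and Hk1 (-0.12), Pfkm (-0.11), Tpi1 (-0.0481), Pgam1 (-0.0718) and Pkm (-0.00101) turned negative, as did Pgam1 (-0.0549) and Eno3 (-0.0492) in clone19 over Fh1_fl_fl. Of these, Pkm alone had been called. The 2 genes over 2-fold lower in clone1 than in clone19 became 1 under RLE scaling, no count filter, DESeq2, only the 2 groups compared and without Gm42418. Pgam1 in Rec over clone19 became 0.0188 without the count filter and 0.000291 without Gm42418, and Slc16a1 in clone1 over clone19 became 0.000421 without Gm42418, none of them called.

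Leaving out 1 library kept direction and call in 1909 of 1980 refits and reversed 15. Genes over 2-fold lower in clone1 than in clone19 ranged from 1 to 2, genes higher in Rec than in clone19 from 1 to 3, genes over 2-fold higher there from 0 to 1, and genes over 2-fold lower in Rec than in Fh1_fl_fl from 4 to 6. Directions turned, for values not called with all libraries, for Slc16a1 in clone1 over clone19 (-0.0929 to 0.0536), Eno3 in clone19 over Fh1_fl_fl (-0.0147 to 0.13), Pfkfb4 in Rec over clone1 (-0.101 to 0.0641), Pgam1 in Rec over clone19 (-0.0322 to 0.0216), and Pfkm (-0.0084 to 0.0751) and Pfkp (-0.091 to 0.00124) in Rec over Fh1_fl_fl. The same held for the ratios Pfkm to Pfkl (-0.0303 to 0.0671) and Pdk1 to Pdk2 (-0.279 to 0.0201) in Rec over clone19, Pfkfb1 to Pfkfb3 in clone19 over Fh1_fl_fl (-0.0881 to 0.224), Aldoc to Aldoa in clone1 over clone19 (-0.022 to 0.0775) and Eno3 to Eno1 in Rec over clone1 (-0.121 to 0.0468). Ratio calls ranged from 64 to 69, and an offset of 2 changed none of the 84.

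Deviations of same-numbered libraries from their group means had 30 correlations of -0.197 to 0.163, with 6 over 0.1 and a median of 0.0162. For the 120 other pairs between groups these were -0.197 to 0.359, with 16 over 0.1 and a median of -0.0029. The labels state no pairing, and such correlations cannot show that there was none. With the replicate block, 197 of 198 fold changes kept direction and call and Pdk3 in clone19 over Fh1_fl_fl lost its call (adjusted p = 0.0556). Sign flips of the ratios within the replicate block called 0 of 84, since 5 pairs allow an exact permutation p of 0.0625 at the least and an adjusted p of 0.0784. The causes were not tested. Depth limits Slc2a3, Slc16a3, Pgam2, Fbp1, Fbp2, Pck1 and Pygl, which were below the count filter.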

Other observations

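The pentose phosphate pathway, which branches from glycolysis at glucose 6-phosphate and makes NADPH, had calls in both directions. Of 9 tested genes, 5 were higher and 3 lower in clone1 over Fh1_fl_fl (median 0.16), and 4 were higher and 3 lower in clone19 (median -0.002). The genes called, 8 of 9 and 7 of 9, were near the 78.6% and 72.9% of all genes called in those comparisons. In Rec over Fh1_fl_fl 5 were higher and 3 lower (median 0.25), against 33.4% and 37.4% of all genes.

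Among regulators of glucose metabolism, 8 of 17 tested were higher and 7 lower in clone1, and 7 higher and 9 lower in clone19, against 38% and 40.5% of all genes in clone1 and 36.8% and 36.1% in clone19. Egln3, a prolyl hydroxylase that marks hypoxia-inducible factor for degradation, had 21.3 ± 1.59 CPM in Rec, 62.9 ± 5.37 in clone1, 56.2 ± 3.41 in clone19 and 18.7 ± 2.07 in Fh1_fl_fl and rose by 1.75 ± 0.08 in clone1 and 1.58 ± 0.08 in clone19 over Fh1_fl_fl (edgeR, adjusted p = 3.59e-17 and 7.91e-16). Egln1, a related hydroxylase, had 104 ± 6.67 CPM in Rec, 212 ± 25.2 in clone1, 299.6 ± 9.94 in clone19 and 134 ± 2.89 in Fh1_fl_fl. Ppargc1a, a coactivator of mitochondrial genes, had 3.05 ± 0.522 CPM in Rec, 76.7 ± 9.9 in clone1, 46.6 ± 1.89 in clone19 and 21.1 ± 0.585 in Fh1_fl_fl and rose by 1.86 ± 0.08 in clone1 and 1.14 ± 0.08 in clone19. Txnip, which restrains glucose uptake, had 17.6 ± 3.23 CPM in Rec, 36 ± 2.58 in clone1, 20.5 ± 2.56 in clone19 and 52.2 ± 2.78 in Fh1_fl_fl and fell by 1.58 ± 0.10 in Rec, 0.53 ± 0.09 in clone1 and 1.36 ± 0.10 in clone19.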
